A study of Homo sapiens with 54 samples.

Results

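The genes described here form a run of 33 zinc finger genes on the long arm of chromosome 19, at 19q13.1, out of 59368 gene names in the tables. They were chosen by symbol from that stretch of the chromosome and ordered by position. The rule itself did not use their levels, but it was set with earlier results of these data known. On GRCh38 (GENCODE 44) they lie between chr19:34677639 and chr19:37817300, a stretch of 3.14 Mb. A gap of 1225.9 kb parts the first 5 (ZNF302, ZNF181, ZNF599, ZNF30 and ZNF792) from the other 28, which start with ZNF565 and end with ZNF573. KRAB zinc finger proteins bind DNA through a tail of C2H2 fingers, and the KRAB box recruits TRIM28 (KAP1). TRIM28 in turn brings in SETDB1, which writes H3K9me3, and heterochromatin proteins. Many family members bind transposable elements, and the genes arose by repeated duplication, so that they sit side by side in clusters.

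Poly(A) RNA was sequenced from 3 established lines of human colorectal cancer (HT-29, HCT-116 and DLD-1) to see what changes when cells become resistant to 5-fluorouracil (5-FU), a pyrimidine analogue that blocks thymidylate synthase. Sensitive cells of each line were set beside cells that had been brought to 5-FU resistance. The authors selected the resistant cells over months in rising doses of 5-FU and maintained them in the drug. Resistance and this long exposure cannot be told apart. For the experiment, sensitive and resistant cells were kept for 24 h in 10 µM of either uracil, which served as control, or 5-FU. Part of the 5-FU cultures was then given irradiation at the median lethal dose of that line. The 18 conditions had 3 libraries each, which gave 54 libraries with 38957142 to 218518344 estimated counts (median 51373543). No group carried an engineered allele according to the labels. The labels do not say whether the 3 libraries of a condition were separate cultures, and p-values then measure only the spread between these libraries.

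The libraries labelled resistant HT-29 stood apart from their label. Of 46 genes that marked sensitive HCT-116 cells they held 44 at 1 TPM or more, and of 5 genes that marked sensitive HT-29 cells they held 0. Under uracil they were therefore also compared with HCT-116, and a difference between sensitive HT-29 cells and these libraries cannot be told apart from a difference between lines. Of 9 markers of colorectal epithelium, 6 to 8 were at 1 TPM or more in every condition. CDX1 was under 1 TPM throughout, and LGALS4 was under 1 TPM in all but the sensitive DLD-1 and sensitive HT-29 conditions. VIL1 was under 1 TPM in all HCT-116 and all labelled resistant HT-29 conditions, and CDX2 only in sensitive HT-29. Of 7 markers of blood, endothelial, stromal and liver cells, at most 2 (PECAM1 and COL1A1) reached 1 TPM. The sum of the 7 was highest in sensitive HCT-116 under 5-FU, at 27.6 to 32.7 TPM. In bulk RNA, fewer cells that express a gene and less RNA per cell cannot be told apart.

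Translated from the reference coding sequences, 30 of the 33 genes carry a KRAB domain. ZNF260 and ZNF345 code for fingers without a recognisable KRAB box, and ZNF781 is annotated as non-coding. The coding genes hold 6 to 29 C2H2 fingers (median 12), with the most in ZNF850. Of the 33 genes, 13 lie on the plus strand and 20 on the minus strand. In 6 pairs the closest annotated starts, which need not be those of the most abundant transcripts, face apart at 25 to 81 bases from each other: ZNF529 with ZNF382, ZNF790 with ZNF345, ZNF829 with ZNF568, ZNF585B with ZNF383, ZNF569 with ZNF570 and ZNF571 with ZNF540. The paralogs ZNF585A and ZNF585B each code for 21 fingers and share 13.9% and 19.8% of their 31-base words with each other, and ZNF302 and ZNF181 share 12.5% and 10.2%. Reads from such stretches are divided between the copies by estimate, so the split within these pairs is less certain than their sum. For 23 of the 33 genes, under 10% of the 31-base words occur in any other gene.

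The promoters of the genes on which the results turn are shown so that their CG content, which differs between them, can be read beside their levels. The windows hold 250 bases before and 50 after the RefSeq start (GRCh38.p14), 5′ to 3′ on the gene's strand, in lower case with each CG in capitals. ZNF599 was lower in all 3 comparisons of resistant with sensitive libraries under uracil. ZNF607 and ZFP30 had the largest falls in HCT-116. ZNF585A and ZNF585B are the paralog pair that fell in HCT-116, and ZNF260 is the member that differed most between the sensitive lines.
ZNF599 (minus strand, chr19:34773166-34773465): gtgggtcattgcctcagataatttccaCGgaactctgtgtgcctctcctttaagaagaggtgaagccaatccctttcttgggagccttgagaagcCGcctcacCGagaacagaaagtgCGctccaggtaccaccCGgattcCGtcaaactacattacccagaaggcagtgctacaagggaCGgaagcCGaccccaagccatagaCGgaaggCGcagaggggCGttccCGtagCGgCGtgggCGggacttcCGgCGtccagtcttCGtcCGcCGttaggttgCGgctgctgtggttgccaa
ZNF260 (minus strand, chr19:36528222-36528521): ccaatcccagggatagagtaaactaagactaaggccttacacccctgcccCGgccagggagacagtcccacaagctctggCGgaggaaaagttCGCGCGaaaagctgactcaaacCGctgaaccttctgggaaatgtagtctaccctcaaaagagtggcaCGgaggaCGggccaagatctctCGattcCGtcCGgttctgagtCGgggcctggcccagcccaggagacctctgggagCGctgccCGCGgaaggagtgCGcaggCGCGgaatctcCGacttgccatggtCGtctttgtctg
ZNF585A (minus strand, chr19:37172646-37172945): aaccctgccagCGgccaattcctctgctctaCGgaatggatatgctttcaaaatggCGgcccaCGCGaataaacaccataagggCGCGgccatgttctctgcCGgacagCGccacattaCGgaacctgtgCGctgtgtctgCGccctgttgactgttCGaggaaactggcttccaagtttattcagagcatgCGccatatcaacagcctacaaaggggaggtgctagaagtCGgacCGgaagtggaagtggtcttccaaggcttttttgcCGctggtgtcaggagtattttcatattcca
ZNF585B (minus strand, chr19:37210487-37210786): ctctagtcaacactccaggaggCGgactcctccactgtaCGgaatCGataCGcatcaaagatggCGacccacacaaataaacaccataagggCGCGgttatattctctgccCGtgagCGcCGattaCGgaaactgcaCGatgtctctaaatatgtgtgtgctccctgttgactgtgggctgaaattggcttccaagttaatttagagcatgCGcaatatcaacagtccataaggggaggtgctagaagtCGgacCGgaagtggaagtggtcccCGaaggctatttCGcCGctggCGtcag
ZFP30 (minus strand, chr19:37656212-37656511): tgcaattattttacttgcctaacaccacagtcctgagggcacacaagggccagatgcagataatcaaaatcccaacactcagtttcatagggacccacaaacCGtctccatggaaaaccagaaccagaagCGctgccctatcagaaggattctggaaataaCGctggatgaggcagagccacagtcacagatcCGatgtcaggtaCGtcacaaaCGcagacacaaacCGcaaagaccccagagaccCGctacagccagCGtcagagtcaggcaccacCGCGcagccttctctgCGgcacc
ZNF607 (minus strand, chr19:37719712-37720011): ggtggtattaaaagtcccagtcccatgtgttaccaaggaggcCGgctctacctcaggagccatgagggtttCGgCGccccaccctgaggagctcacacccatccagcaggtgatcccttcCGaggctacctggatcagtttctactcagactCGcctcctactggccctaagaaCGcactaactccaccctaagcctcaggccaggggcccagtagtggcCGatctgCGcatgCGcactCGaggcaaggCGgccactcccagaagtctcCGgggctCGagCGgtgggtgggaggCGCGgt

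A CG was searched for by its letters, which read the same on both strands and cannot overlap another CG. RefSeq windows were matched for 29 of the 33 genes, all but ZNF571, ZFP14, ZNF781 and ZNF30. They held 12 to 37 CG (median 23), and 27 of 29 held 15 or more (93.1%), against a median of 14 and 48.8% over 27305 promoters of the same length. ZFP30 had the fewest, with 12, and ZFP82 the most, with 37. The windows of ZNF585A and ZNF585B matched at 230 of 280 aligned bases (82.1%) and held 17 and 19 CG. The 9 members with a window that fell in HCT-116 held 12 to 35 CG with a median of 19, and the 16 tested members that were not called lower held 14 to 37 with a median of 24. Of the 29 windows, 6 (ZFP82, ZNF382, ZNF567, ZNF383, ZNF569 and ZNF573) lay over 1000 bases from the start of the most abundant transcript, 3 of them of members that fell in HCT-116.

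As a whole the cluster was expressed at a low level. Its summed level under uracil was 67.5 ± 0.675 TPM in sensitive HT-29, 57.7 ± 1.93 TPM in sensitive HCT-116 and 88.6 ± 1.55 TPM in sensitive DLD-1 (mean ± SD, n = 3). TPM is corrected for transcript length, so levels can be set beside each other between genes. In sensitive cells under uracil, 1 TPM was reached by 12 members in HT-29, 14 in HCT-116 and 19 in DLD-1. Of the 33, 9 members, namely ZNF181, ZNF30, ZNF792, ZNF565, ZNF567, ZNF585A, ZNF585B, ZNF383 and ZNF573, reached 1 TPM in at least 1 condition of every line. A further 10 never did (ZFP82, ZNF529, ZNF382, ZNF790, ZNF829, ZNF568, ZNF569, ZNF570, ZNF793 and ZNF540), and ZFP82, ZNF790, ZNF829 and ZNF570 stayed under 0.2 TPM in every condition mean. ZNF781, the non-coding member, reached 1.1 TPM at most in a condition mean and passed the filter on low counts in no fit.

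**Figure D1:**
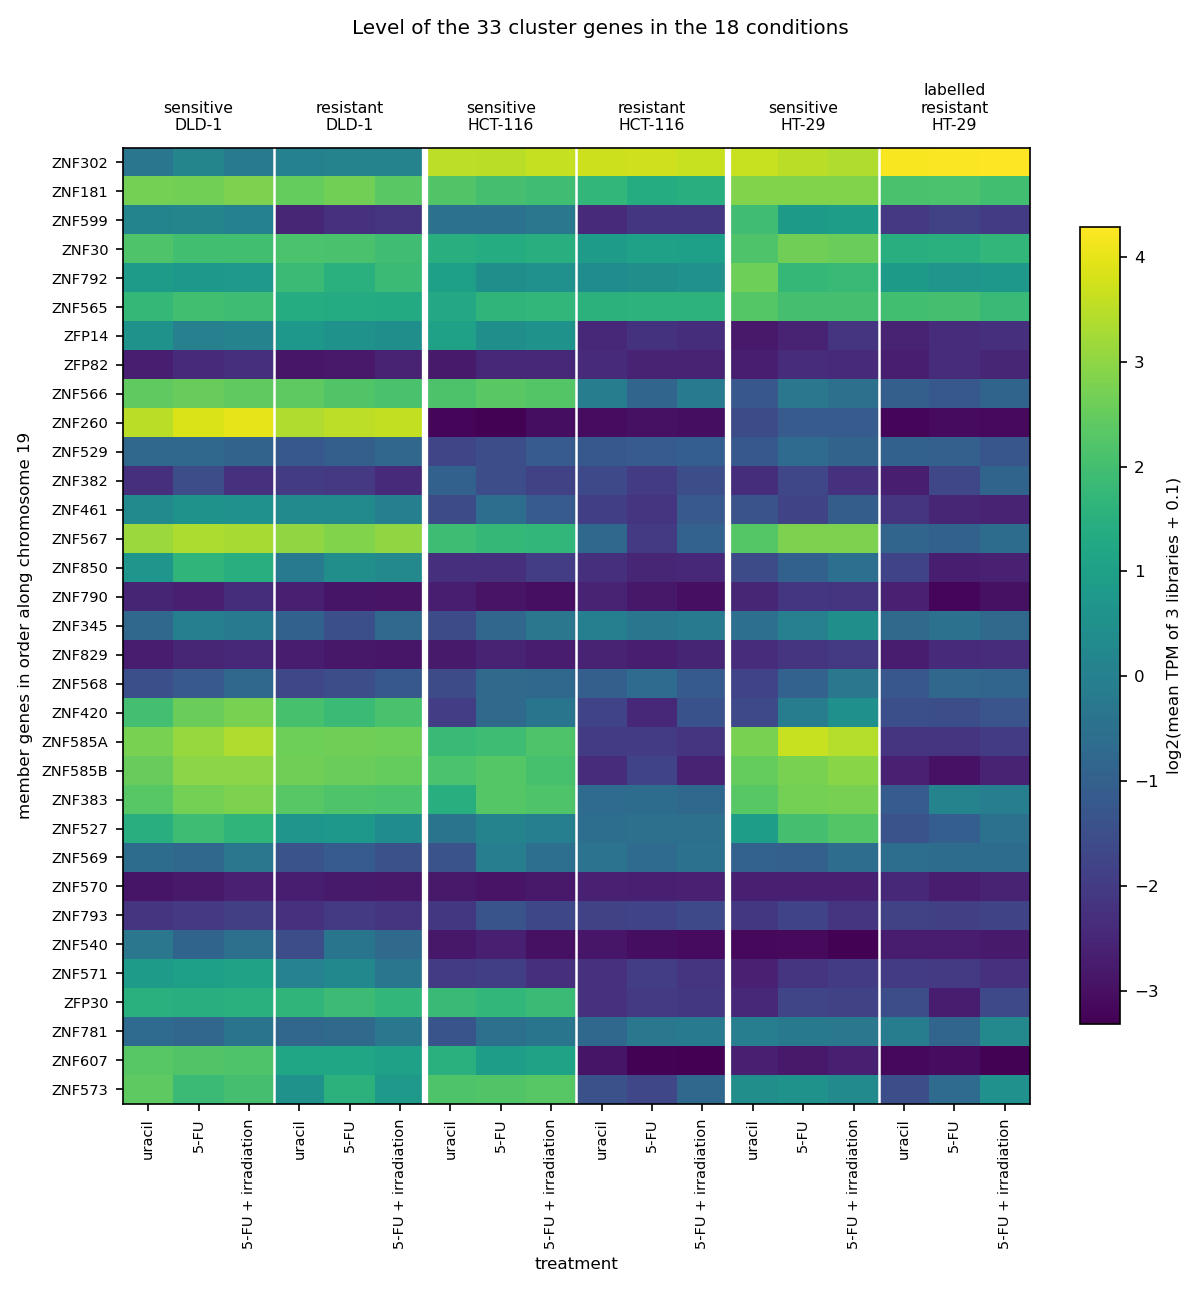
Mean level of the 33 genes (rows, in order along the chromosome) in the 18 conditions (columns, grouped by line and by sensitive or resistant state), as log2(TPM + 0.1) of the mean of 3 libraries. ZNF302 is bright in every HCT-116 and HT-29 column and dark in DLD-1, ZNF260 shows the opposite, and a set from ZFP14 to ZNF573 is darker in resistant than in sensitive HCT-116.

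The sensitive lines differed in which members they used. These comparisons were made in one edgeR quasi-likelihood fit over all 54 libraries, in which 32 of the 33 members (all but ZNF781) passed the filter on low counts. A gene was called where p, adjusted after Benjamini and Hochberg over all genes tested, did not exceed 0.01 and the log2 difference was 1 or more in size. ZNF260, which lacks the KRAB box, was the most abundant member in sensitive DLD-1, with 11.7, 11.4 and 10.8 TPM. It was at 0, 0.0151 and 0.00752 TPM in sensitive HCT-116 and 0.241, 0.188 and 0.272 TPM in sensitive HT-29. No library of these groups overlapped, and with 0, 2 and 1 counts in HCT-116 the level in DLD-1 was at least 461-fold higher than the 3-count floor per library. ZNF302 had the reverse order, with 0.87, 0.444 and 0.748 TPM in sensitive DLD-1 against 10.9, 12.4 and 11.1 TPM in sensitive HCT-116. In sensitive HT-29 it was at 11.8, 12.9 and 12.1 TPM, a range that overlaps that of HCT-116.

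Against DLD-1, sensitive HCT-116 had 12 of 32 members lower and 1 higher, beside 14.2% and 16.6% of all genes. The higher one was ZNF302, which rose by 4.69 ± 0.14 on the log2 scale (adjusted p = 4.75e-33). The lower ones included ZNF850 (log2 difference -4.48) and ZNF571 (-3.44). Sensitive HT-29 had 11 lower and 3 higher than DLD-1, beside 17.4% and 13.4%. ZNF302, ZNF599 and ZNF792 were the higher ones, and ZNF607 (-6.90), ZNF420 (-6.26) and ZFP30 (-5.76) had the largest differences among the lower ones, each with 1 to 9 counts in the HT-29 libraries. Against HCT-116, sensitive HT-29 had 5 lower and 9 higher, beside 20.9% and 16.7%. The 5 were ZFP14, ZNF566, ZFP30, ZNF607 and ZNF573. Without replicate 1, ZNF529 lost its call in HCT-116 against DLD-1 (log2 difference -0.70) and in HT-29 against HCT-116 (0.74), and without replicate 3 it lost both again (-1.28 and 1.24). In HCT-116 against DLD-1, ZNF345 lost its call without replicate 2 (-1.34) and without replicate 3 (-1.16), ZNF585A without replicate 2 (-0.93) and without replicate 3 (-0.95), and ZNF607 without replicate 3 (-0.94).

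The question behind the next comparison was what acquired 5-FU resistance changed. The cluster was lower in the resistant libraries of each line. Under uracil the summed level was 76.3 ± 4.02 TPM in resistant DLD-1, a ratio of 0.861 ± 0.0478 to sensitive cells. It was 29.3 ± 1.59 TPM in resistant HCT-116, a ratio of 0.507 ± 0.0323, and 37 ± 0.736 TPM in the libraries labelled resistant HT-29, a ratio of 0.548 ± 0.0122 (SD, n = 3 a group). The ranges of the 3 sensitive and the 3 resistant libraries did not overlap in any line. Within a line, levels were tested in one edgeR fit over its 18 libraries, in which 31 members passed the filter on low counts in DLD-1 and 28 each in HCT-116 and HT-29. The log2 differences are of counts, which are not scaled to transcript length, and can differ from the ratio of the TPM values printed beside them.

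**Figure D2:**
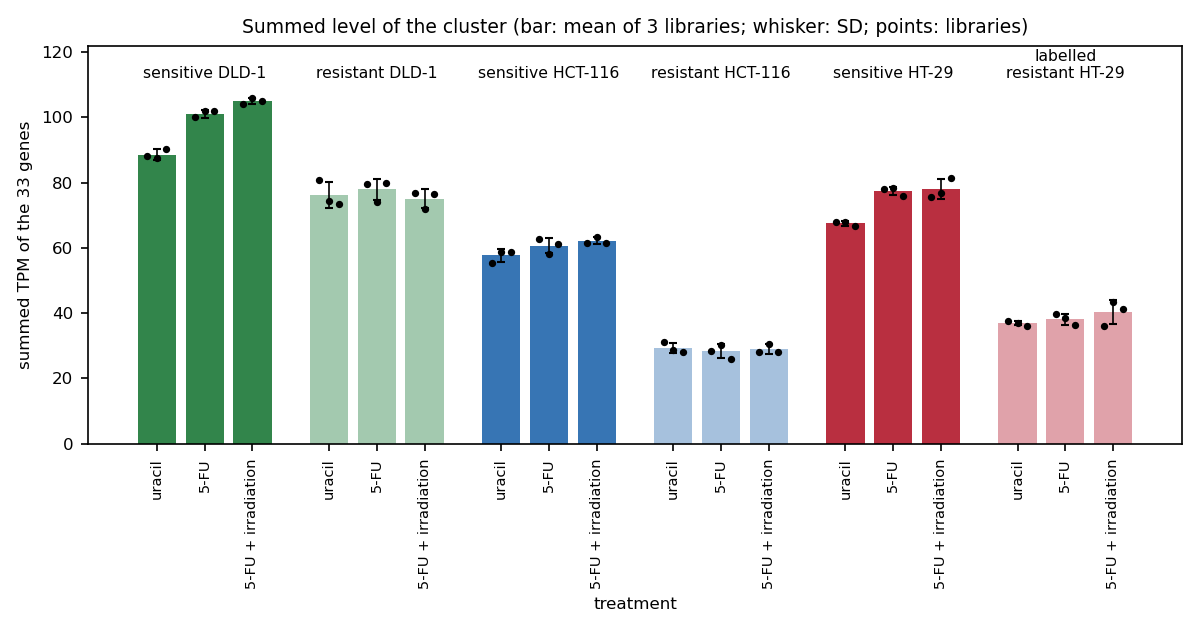
Summed TPM of the 33 genes in each condition, with bars for the mean of 3 libraries, whiskers for the SD and points for the libraries. Resistant HCT-116 and the libraries labelled resistant HT-29 stay between 26.1 and 43.5 TPM under every treatment, below all libraries of sensitive HCT-116 (55.5 to 63.4 TPM).

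In DLD-1, few members passed the fold threshold. Of 31 members tested under uracil, 3 were called lower and 1 higher, beside 2.01% and 3.69% of all genes. The median log2 difference of the tested members was -0.29, against -0.01 over all genes tested. ZNF599, ZNF607 and ZNF573 were the lower ones and ZNF792 the higher one. At the adjusted p alone 9 were lower and 2 higher. The share of all genes at the adjusted p alone is not given here. The same holds for the comparisons of resistant with sensitive cells below, so such counts only describe the members. The members not tested were ZNF790 and ZNF781.

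In HCT-116, 10 of 28 members tested were lower in resistant cells and 0 higher, beside 6.8% and 4.17% of all genes. The median log2 difference was -0.53, against 0.00 over all genes tested. From the largest fall to the smallest, the 10 were ZNF607 (-5.99), ZFP30 (-5.88), ZNF585B (-4.68), ZNF567 (-4.58), ZNF573 (-4.21), ZFP14 (-3.99), ZNF585A (-3.26), ZNF383 (-2.67), ZNF566 (-2.43) and ZNF599 (-2.28). At the adjusted p alone, with no fold threshold, 13 were lower and 1 higher (ZNF565, 0.47), and DESeq2 called 10 members in all. Not tested were ZNF260, ZNF790, ZNF420, ZNF540 and ZNF781.

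In HT-29, 12 of 28 members tested were lower in the labelled resistant libraries and 0 higher, but 18% of all genes were lower and 21.4% higher in this comparison. At the adjusted p alone 13 were lower and 1 higher (ZNF302, 0.36), and DESeq2 called 12. The median log2 difference of the members was -0.88. The 12 were ZNF181, ZNF599, ZNF30, ZNF792, ZNF260, ZNF567, ZNF850, ZNF585A, ZNF585B, ZNF383, ZNF527 and ZNF573. Scaling by library size moved the median of all genes by 0.26 and ended the calls of ZNF181 (-0.81) and ZNF30 (-0.86). Without replicate 1, ZNF181 also lost its call (-1.0). Not tested were ZNF790, ZNF540, ZFP30, ZNF781 and ZNF607.

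**Figure D3:**
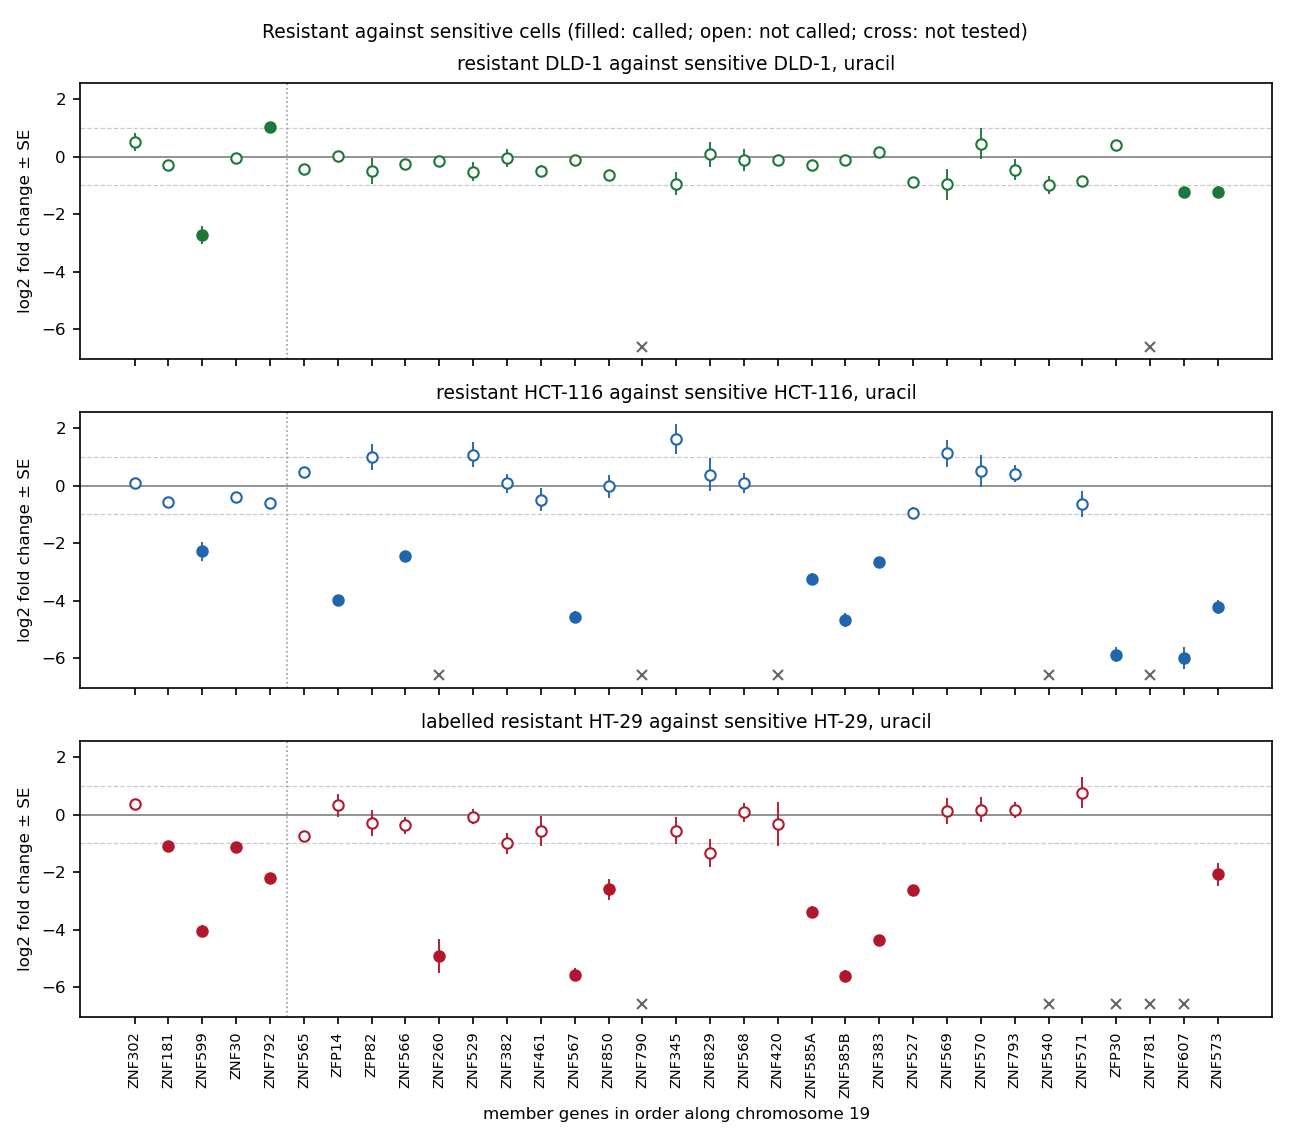
log2 fold change ± SE of each gene in resistant against sensitive cells under uracil, in the order of the genes along the chromosome, for DLD-1 (top), HCT-116 (middle) and the libraries labelled resistant HT-29 (bottom). Filled points were called, open points were not, crosses were not tested, dashed lines mark a log2 change of 1 in either direction, and the dotted line marks the gap of 1225.9 kb between the first 5 genes and the rest. Lower members are scattered between members that were not called.

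Along the chromosome, the members that fell in HCT-116 did not form one unbroken block. Of the 5 members before the gap, 1 was lower (ZNF599), and of 23 tested after it, 9 were lower. ZNF585A, ZNF585B and ZNF383 are direct neighbours, and ZFP30, ZNF607 and ZNF573 close the cluster with only the untested ZNF781 among them. Between these groups, ZNF527, ZNF569, ZNF570, ZNF793 and ZNF571 were tested and not called. Of the 6 pairs with starts that face apart, ZNF585B and ZNF383 was the pair in which both members were called. The paired starts, at 37218153 and 37218183, are not those of the most abundant transcripts over all libraries. For ZNF585B that start lay in the window 37210487 to 37210786, and for ZNF383 it lay 9336 bases from the matched window. In the other 5 pairs no tested member was called lower in HCT-116, and ZNF790 and ZNF540 were not tested. The 10 members of these pairs had means of only 0.0392 to 0.409 TPM in sensitive HCT-116 under uracil.

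ZNF599, a KRAB protein with 14 fingers, was lower in resistant DLD-1, resistant HCT-116 and the libraries labelled resistant HT-29. In DLD-1 it was at 0.899, 1.02 and 1.02 TPM in sensitive and 0.0445, 0.0937 and 0.0865 TPM in resistant cells, and fell by 2.73 ± 0.32 on the log2 scale (adjusted p = 6.88e-07). In HCT-116 it was at 0.528, 0.797 and 0.546 TPM against 0.0814, 0.131 and 0.0576 TPM, and fell by 2.28 ± 0.33 on the log2 scale (adjusted p = 4.41e-06). The HT-29 levels were 3.91, 3.97 and 3.4 TPM in sensitive cells against 0.201, 0.118 and 0.107 TPM in the labelled resistant libraries, and fell by 4.06 ± 0.21 on the log2 scale (adjusted p = 1.55e-15). No resistant library reached the lowest sensitive library of the line on its label. The level in sensitive HT-29 was above that of the other sensitive lines. Since the labelled resistant HT-29 libraries hold HCT-116 markers, sensitive HT-29 need not be their starting point.

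ZNF573, the last gene of the cluster with 19 fingers, was the other member called lower in all 3 comparisons under uracil. In DLD-1 it was at 3.96, 4.37 and 7.3 TPM in sensitive and 1.86, 0.96 and 1.29 TPM in resistant cells, and fell by 1.22 ± 0.22 on the log2 scale (adjusted p = 0.000144). In HCT-116 it was at 4.9, 4.46 and 4.09 TPM against 0.465, 0.148 and 0.204 TPM, and fell by 4.21 ± 0.25 on the log2 scale (adjusted p = 5.03e-12). In HT-29 it was at 1.11, 0.785 and 1.85 TPM against 0.215, 0.375 and 0.181 TPM in the labelled resistant libraries, and fell by 2.08 ± 0.39 on the log2 scale (adjusted p = 2.95e-05). The groups did not overlap under uracil in any line. Sensitive and resistant DLD-1 overlapped under 5-FU, with 3.05, 5.39 and 2.12 TPM against 3.65, 2.71 and 2.19 TPM.

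ZNF607, the neighbour of ZNF573 with 18 fingers, fell in DLD-1 and HCT-116. In DLD-1 it was at 4.63, 5.11 and 4.78 TPM in sensitive and 2.24, 1.77 and 2.39 TPM in resistant cells, and fell by 1.23 ± 0.08 on the log2 scale (adjusted p = 9.32e-11). In HCT-116 it was at 3.11, 3 and 2.08 TPM against 0, 0.00812 and 0.0987 TPM, and fell by 5.99 ± 0.38 on the log2 scale (adjusted p = 5.48e-11). Replicate 3 of the resistant HCT-116 libraries held 12 counts, whereas the other two held 0 and 1. Under 5-FU the 3 resistant HCT-116 libraries held 0, 1 and 0 counts and under added irradiation 0 in each, so that the sensitive level was at least 73.2-fold and 79.7-fold higher than the 3-count floor per library. In sensitive HT-29 the gene was at 0.0908, 0.0408 and 0.0413 TPM, and it was not tested in that line.

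ZFP30, a KRAB protein with 12 fingers whose annotated span holds ZNF781 and ends before ZNF607 starts, fell in HCT-116. It was at 3.71, 3.24 and 3.17 TPM in sensitive and 0.144, 0.0254 and 0.159 TPM in resistant HCT-116, and fell by 5.88 ± 0.27 on the log2 scale (adjusted p = 4.6e-14). In DLD-1 it was at 2.83, 2.88 and 2.57 TPM in sensitive and 3.47, 2.68 and 2.91 TPM in resistant cells, groups that overlapped in TPM. Its log2 difference there was 0.41 ± 0.11 (adjusted p = 0.00446), which passed the adjusted p but not the fold threshold. Sensitive HT-29 held little of it, at 0.135, 0.0958 and 0.0207 TPM, and the gene was not tested in that line.

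The paralogs ZNF585A and ZNF585B fell in HCT-116 and in the labelled resistant HT-29 libraries. ZNF585A was at 3.23, 3.1 and 4.13 TPM in sensitive and 0.156, 0.14 and 0.151 TPM in resistant HCT-116, and fell by 3.26 ± 0.21 on the log2 scale (adjusted p = 1.9e-11). ZNF585B was at 4.62, 3.98 and 4.12 TPM against 0.0264, 0.0546 and 0.202 TPM, and fell by 4.68 ± 0.26 on the log2 scale (adjusted p = 1.01e-12). No library overlapped in either gene. In HT-29, ZNF585A was at 7.36, 6.19 and 6.39 TPM against 0.119, 0.104 and 0.155 TPM, and fell by 3.38 ± 0.19 on the log2 scale (adjusted p = 6.33e-15). ZNF585B was at 5.48, 5.48 and 5.49 TPM against 0.1, 0.0372 and 0.0525 TPM, and fell by 5.61 ± 0.21 on the log2 scale (adjusted p = 1.58e-18). In DLD-1 neither was called, with 6.6 ± 0.859 TPM in sensitive and 5.99 ± 1.05 TPM in resistant cells for ZNF585A, and 5.6 ± 0.451 TPM and 6.18 ± 0.666 TPM for ZNF585B (SD, n = 3). Without the pair, the ratio of the summed level was 0.581 in HCT-116 and 0.665 in HT-29.

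ZNF383, with 11 fingers, has an annotated start 30 bases from one of ZNF585B on the other strand. It was at 1.98, 3.43 and 2.43 TPM in sensitive and 0.555, 0.471 and 0.586 TPM in resistant HCT-116, and fell by 2.67 ± 0.17 on the log2 scale (adjusted p = 2.55e-11). Its HT-29 levels were 5.2, 4.79 and 4.59 TPM against 0.248, 0.443 and 0.393 TPM, and fell by 4.35 ± 0.15 on the log2 scale (adjusted p = 1.91e-19). ZNF567, with 14 fingers and the next most abundant member in DLD-1 under uracil after ZNF260, fell in the same comparisons. It was at 3.52, 3.63 and 3.82 TPM against 0.522, 0.663 and 0.301 TPM in HCT-116, and fell by 4.58 ± 0.21 on the log2 scale (adjusted p = 7.5e-14). In HT-29 it was at 4.1, 5.8 and 4.32 TPM against 0.489, 0.442 and 0.449 TPM, and fell by 5.57 ± 0.23 on the log2 scale (adjusted p = 7.09e-18). In DLD-1 the log2 difference was 0.17 ± 0.10 (adjusted p = 0.238) for ZNF383 and -0.12 ± 0.08 (adjusted p = 0.249) for ZNF567.

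ZNF792, which has 12 fingers, was the member that rose in DLD-1. It was at 1.72, 1.71 and 1.71 TPM in sensitive and 4.56, 3.07 and 3.02 TPM in resistant DLD-1, and rose by 1.04 ± 0.12 on the log2 scale (adjusted p = 4.64e-07). Replicate 1 of the resistant libraries was the highest, and without replicate 1 the log2 difference was 0.83, under the fold threshold. Its HT-29 levels were 6.33, 5.88 and 5.71 TPM against 1.77, 1.33 and 1.89 TPM, and fell by 2.20 ± 0.08 on the log2 scale (adjusted p = 2.28e-18). ZNF260 was at 0.241, 0.188 and 0.272 TPM in sensitive HT-29 and 0.00911, 0 and 0.016 TPM in the labelled resistant libraries. With 1, 0 and 2 counts there, its sensitive level was at least 9.28-fold higher than the 3-count floor per library. In DLD-1, where ZNF260 was abundant, its log2 difference was -0.15 ± 0.06 (adjusted p = 0.0682).

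**Figure D4:**
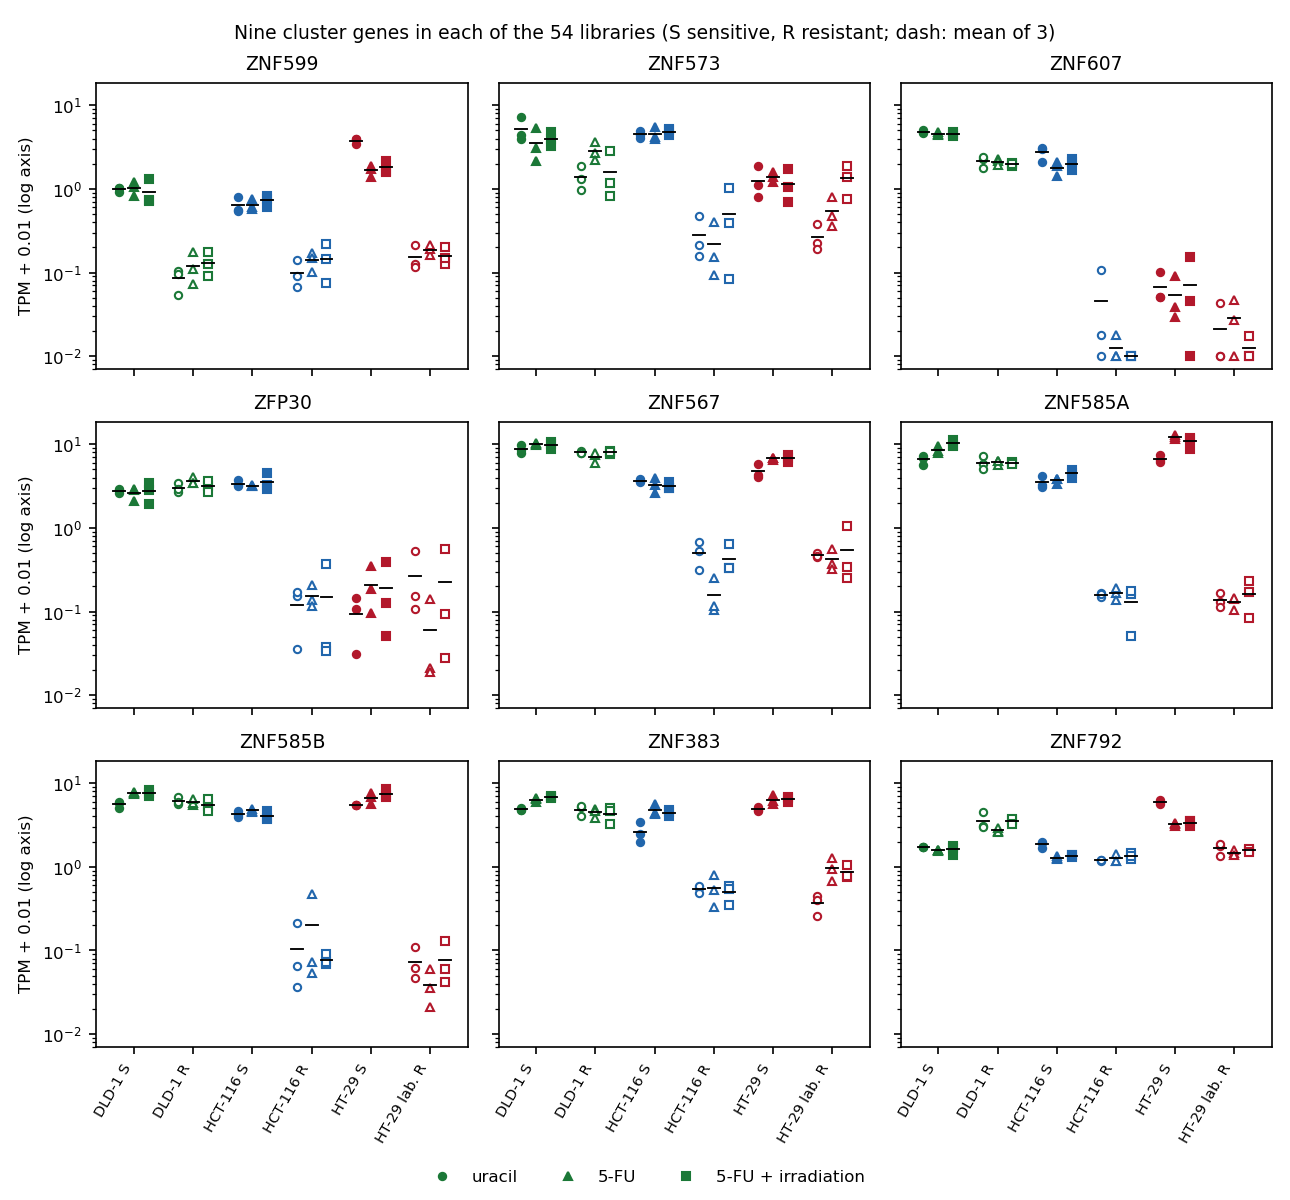
TPM + 0.01 on a log axis of 9 members in each of the 54 libraries, by line and state (S sensitive, filled; R resistant, open) and by treatment (circle uracil, triangle 5-FU, square 5-FU with irradiation), with dashes for the means of 3. Resistant points lie below sensitive points of the same line for ZNF599 in all lines, for ZNF607 in DLD-1 and HCT-116, and for ZNF567, ZNF585A and ZNF585B in HCT-116 and HT-29, while ZNF792 in DLD-1 lies higher.

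All 3 members lower in DLD-1 were also lower in HCT-116, that is 3 of 3 and 3 of 10. HCT-116 and HT-29 had 6 lower members in common, 60% and 50% of their lists, and DLD-1 and HT-29 had 2 (66.7% and 16.7%). The HT-29 list rests on the labelled resistant libraries, which hold HCT-116 markers. Overlaps over all genes were not computed, so these counts only describe the members. The difference between the lines was tested itself, as the change with resistance in HCT-116 minus that in DLD-1, at the adjusted p alone. Of 32 members, 10 had a negative and 3 a positive term, beside 18.3% and 14% of all genes. Of the 10 members that fell in HCT-116, 9 fell further there than in DLD-1, from ZNF566 (-2.15) to ZFP30 (-6.28). The 10 were picked by their fall in the same HCT-116 libraries that enter this term, which favours a negative term in advance. The 7 of them not called in DLD-1 had log2 differences of -0.29 to 0.41 in that line. ZNF599 was the exception, with a term of 0.47 ± 0.46 (adjusted p = 0.448). ZNF792 had the other negative term, and ZNF565, ZNF345 and ZNF569 had the positive ones. ZNF345 lost its term without replicate 2 (2.23), and ZNF569 without replicate 1 (2.31), without replicate 2 (1.59), without replicate 3 (2.30) and with the replicate number as a block (2.11).

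Resistant and sensitive cells were also compared under the same treatment. In HCT-116, 11 members were lower under 5-FU and 11 under 5-FU with irradiation, with 0 higher in each, beside 8.03% and 6.14% of all genes lower and 5.28% and 5.72% higher. At the adjusted p alone 14 and 13 were lower and 0 higher in each, and DESeq2 called 10 and 11 members. The same 10 genes were lower under all 3 treatments. ZNF461 was added under 5-FU and ZNF527 under irradiation. ZNF461 lost its call without any one of the 3 replicates (log2 differences -1.01, -1.64 and -1.15) and with DESeq2 (-1.25), and ZNF527 lost its call without replicate 2 (-0.99).

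In DLD-1, ZNF599 was lower under all 3 treatments. Under 5-FU, ZNF850 (-1.19) and ZNF345 (-1.70) were also lower and 0 members higher, beside 5.23% and 3.88% of all genes. ZNF345 lost its call without replicate 1 (-1.69) and without replicate 3 (-1.47). At the adjusted p alone 12 members were lower and 3 higher under 5-FU, and DESeq2 called 3 in all. Under irradiation, ZNF571 (-1.28) was lower and ZNF792 (1.31) higher, beside 5.07% and 4.31%. ZNF607 stood at -0.96 and -0.93 in these comparisons.

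In HT-29, the labelled resistant libraries had 13 members lower under 5-FU and 12 under irradiation, with 0 higher, beside 21% and 20.3% of all genes lower and 21.7% and 22.1% higher. At the adjusted p alone 15 members were lower and 1 higher under each, and DESeq2 called 13 and 13 in all. The lower members shared by all 3 treatments numbered 11. Under 5-FU, ZNF566 lost its call without replicate 2 (-0.97), and ZNF420 lost its call without replicate 1 (-1.30), without replicate 2 (-1.92) and with DESeq2 (-2.04). Under irradiation, ZNF573 lost its call without replicate 2 (-1.0). Its TPM overlapped there, with 0.68, 1.73 and 1.03 TPM in sensitive and 0.74, 1.39 and 1.88 TPM in the labelled resistant libraries, and the mean was higher in the latter although the counts were called lower.

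The libraries labelled resistant HT-29 were also set against HCT-116 in the joint fit. Against sensitive HCT-116 under uracil, 11 of 32 members were lower and 1 (ZNF529, 1.32) higher, beside 4.6% and 2.27% of all genes. ZNF529 lost its call without replicate 1 (1.00) and without replicate 3 (1.00). The comparison uses the same sensitive HCT-116 libraries as that of resistant HCT-116, and all 10 members lower in resistant HCT-116 were among the 11, with ZNF527 as the other one. For ZNF607, the log2 difference was -7.46 here and -5.99 in resistant HCT-116. For ZFP30 the values were -5.72 and -5.88, for ZFP14 -4.33 and -3.99, and for ZNF599 -1.85 and -2.28.

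Against resistant HCT-116, 1 member was lower and 0 higher, beside 1.75% and 1.61% of all genes, and DESeq2 called 1 as well. ZNF566 was the lower one, at 0.298, 0.499 and 0.375 TPM in the labelled resistant HT-29 libraries and 0.776, 0.877 and 0.781 TPM in resistant HCT-116, a log2 difference of -1.50 ± 0.19 (adjusted p = 7.05e-09). At an unadjusted p under 0.05, 9 of 32 members differed, beside 36% of all genes. ZNF302 (0.49) and ZNF30 (0.44) were higher at the adjusted p but under the fold threshold.

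**Figure D5:**
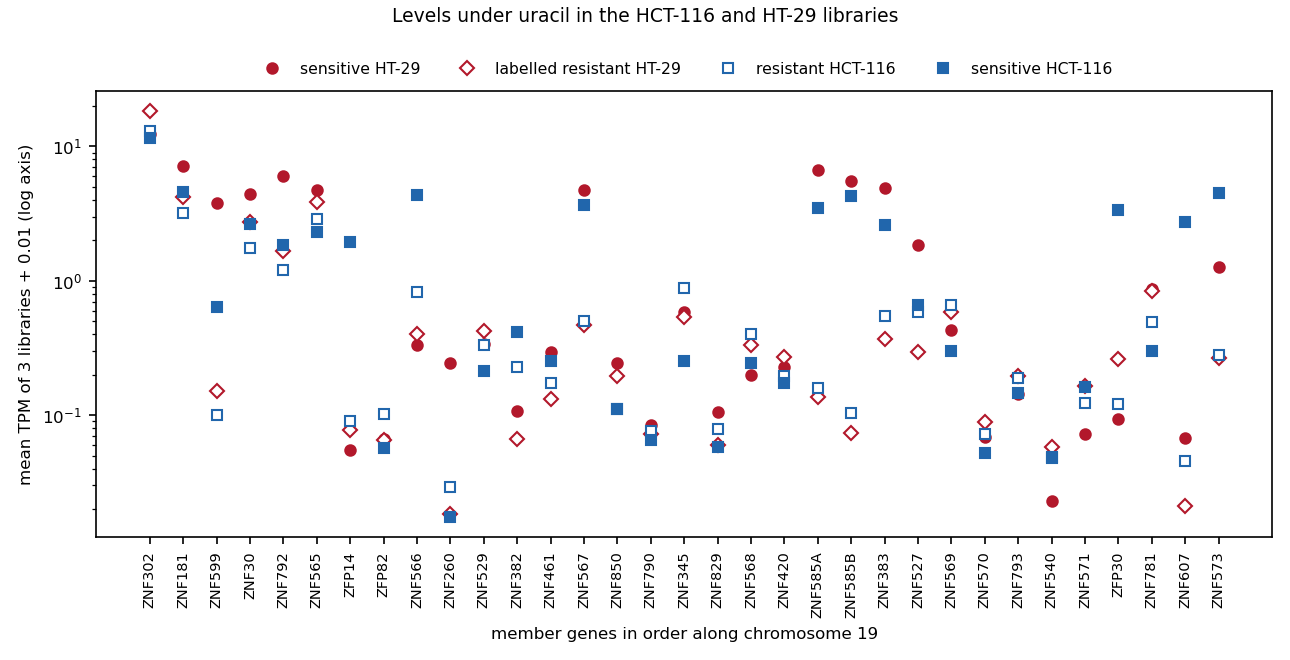
Mean TPM + 0.01 of 3 uracil libraries on a log axis for each gene, in order along the chromosome, in sensitive HT-29, the libraries labelled resistant HT-29, resistant HCT-116 and sensitive HCT-116. For ZFP14, ZNF566, ZNF567, ZNF585A, ZNF585B, ZNF383, ZNF607 and ZNF573, sensitive HCT-116 lies above both the labelled resistant HT-29 and the resistant HCT-116 points.

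The next comparison asked what 5-FU itself did to the cluster. In sensitive cells few members changed by 2-fold. In sensitive DLD-1, 0 of 31 members were called by edgeR and 0 by DESeq2, beside 1.37% of all genes lower and 2.66% higher. At an unadjusted p under 0.05 there were 11, and at the adjusted p alone 1 was lower (ZFP14) and 6 higher (ZNF260, ZNF850, ZNF420, ZNF585A, ZNF585B and ZNF383). No share of all genes is given at either of these thresholds. In sensitive HCT-116, 0 were lower and 1 higher, beside 3.36% and 4.79%. ZNF569, with 18 fingers, was at 0.25, 0.201 and 0.413 TPM under uracil and 0.864, 0.544 and 1.16 TPM under 5-FU, and rose by 1.54 ± 0.44 on the log2 scale (adjusted p = 0.00517). DESeq2 called 0, and ZNF569 lost its call without replicate 1 (1.45), without replicate 2 (1.58) and without replicate 3 (1.60).

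In sensitive HT-29, 2 of 28 members were lower and 1 higher under 5-FU, beside 3.3% and 8.86% of all genes. ZNF599 went from 3.91, 3.97 and 3.4 TPM under uracil to 1.73, 1.36 and 1.89 TPM under 5-FU, and fell by 1.24 ± 0.15 on the log2 scale (adjusted p = 1.11e-07). ZNF792 went from 6.33, 5.88 and 5.71 TPM to 3.26, 3.11 and 3.34 TPM, and fell by 1.17 ± 0.08 on the log2 scale (adjusted p = 6.09e-13). The groups did not overlap for either gene. ZNF527, with 11 fingers, was the higher one, with a log2 difference of 1.10 ± 0.14 (adjusted p = 1.72e-07). ZNF585A was the 1 member higher at the adjusted p alone in all 3 sensitive lines, by 0.53 in HT-29, 0.57 in HCT-116 and 0.48 in DLD-1 on the log2 scale, each under the 2-fold threshold.

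In resistant libraries, no member passed this rule under 5-FU. edgeR and DESeq2 each called 0 in DLD-1, HCT-116 and the labelled resistant HT-29, with 5, 3 and 1 members at an unadjusted p under 0.05. In these comparisons 0.0138%, 0% and 0.00421% of all genes were called. Irradiation added to 5-FU also gave 0 called members with both tools in all 6 forms. The members at an unadjusted p under 0.05 numbered 1 in sensitive and 4 in resistant DLD-1, 0 and 2 for HCT-116, and 3 and 1 for HT-29. The share of all genes called was 0.00842% and 0.434% in sensitive and resistant HT-29, 0% and 0.0261% in HCT-116, and 0% and 0.142% in DLD-1. No share of all genes at an unadjusted p under 0.05 is given for any of these comparisons.

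Whether the response to 5-FU differed between resistant and sensitive cells was tested as an interaction, called at the adjusted p alone. In DLD-1, 1 of 31 members had such a term (ZFP14, 0.68 ± 0.19 (adjusted p = 0.00841)), beside 22.8% of all genes, and it was lost without replicate 2 (0.47) and without replicate 3 (0.59). In HCT-116, 2 of 28 had one, beside 29.7%. They were ZNF792, 0.52 ± 0.13 (adjusted p = 0.00283), and ZNF567, -1.74 ± 0.48 (adjusted p = 0.00864). Each was lost without any one replicate, with 0.45 to 0.63 for ZNF792 and -2.52 to -1.47 for ZNF567. Another member was called in their place each time, namely ZFP14 without replicate 1 (1.34), ZNF383 without replicate 2 (-1.14) and ZNF566 without replicate 3 (-0.74). In HT-29, 5 of 28 had one, beside 35.4%: ZNF302, ZNF599, ZNF792 and ZNF565 with positive terms and ZNF527 with a negative one. ZNF565 was lost without replicate 1 (0.55) and without replicate 2 (0.42), and ZNF527 without replicate 2 (-0.79) and without replicate 3 (-1.24). In each line the share among the members was under that among all genes tested, a description without a test.

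The partners of KRAB proteins and the neighbours in the interval give the surroundings of these values. Under uracil, the list of 20 corepressor and heterochromatin genes held 0 called genes in resistant against sensitive DLD-1 and 0 in HCT-116 by edgeR, with 7 and 14 at an unadjusted p under 0.05. No share of all genes at that p is given beside the 7 and 14, which only describe the list. In HT-29 it held 1 lower (CBX3, -1.01) and 1 higher (DNMT3B, 1.87). TRIM28, the corepressor that KRAB boxes bind, was at 685 ± 36.6 TPM in sensitive and 1160 ± 85 TPM in resistant HCT-116 (SD, n = 3). Its log2 difference under uracil was 0.68 ± 0.05 (adjusted p = 5.21e-11), past the adjusted p and under the fold threshold. Under 5-FU it was 1.01 ± 0.05 (adjusted p = 2.82e-14) and under irradiation 1.06 ± 0.05 (adjusted p = 1.35e-14), and both were called. TRIM28 had means of 544 and 522 TPM in sensitive HCT-116 under these treatments, below the uracil mean. In resistant HCT-116 TRIM28 had means of 1150 and 1100 TPM, close to the uracil mean. CBX5 and DNMT1 were called higher with it in HCT-116 under each of these treatments, UHRF1 under irradiation, and ZNF274 was called lower in DLD-1 under each. In DLD-1 under uracil, the difference of TRIM28 was 0.01 ± 0.05 (adjusted p = 0.922). SETDB1, which writes H3K9me3, had differences under uracil of -0.08 ± 0.04 (adjusted p = 0.155) in DLD-1 and 0.06 ± 0.05 (adjusted p = 0.339) in HCT-116. The part of these genes in the levels of the cluster was not tested.

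Between the first and the last member lie 85 other genes named in the tables, of which 2 are zinc finger genes, 58 other protein coding genes and 25 of other types. In HCT-116 under uracil, 61 of the 85 were tested, and 7 were lower and 6 higher in resistant cells, with a median log2 difference of 0.05. Among the 50 other protein coding genes tested, 4 were lower and 6 higher. In DLD-1, 50 were tested, with 0 lower and 3 higher by edgeR, and 20 at an unadjusted p under 0.05. The share of all genes at that unadjusted p is not given. Of the 2 other zinc finger genes, ZNF146 was abundant, and its log2 difference was -0.01 ± 0.04 (adjusted p = 0.825) in HCT-116 and -0.05 ± 0.03 (adjusted p = 0.264) in DLD-1. ZNF875, the other one, was at 3.25, 2.75 and 4.12 TPM in sensitive and 0.404, 0.307 and 0.411 TPM in resistant HCT-116, and fell by 4.39 ± 0.23 on the log2 scale (adjusted p = 4.82e-13). In HT-29 it was at 17.6, 18.4 and 20.7 TPM against 0.375, 0.201 and 0.204 TPM in the labelled resistant libraries, and fell by 8.23 ± 0.15 on the log2 scale (adjusted p = 2.89e-25). In DLD-1 its log2 difference was -0.61 ± 0.10 (adjusted p = 6.03e-05), under the fold threshold.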

How the data were processed

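RNA was measured in 54 libraries of 3 cell lines. The authors trimmed reads with Trimmomatic 0.36, checked them with FastQC 0.11.8 and quantified transcripts on GRCh38.p13 with kallisto 0.44.0. They deposited estimated counts and TPM, both per transcript and as sums per gene. The deposited counts per gene were rounded to whole numbers for the tests. The deposited TPM per gene, which are scaled to transcript length and library total, gave the levels. Values per transcript served only to find the most abundant transcript of each gene.

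Counts were tested with edgeR 4.0.16 in R 4.3.3 (filterByExpr, TMM factors of 0.853 to 1.11, quasi-likelihood fit, Benjamini-Hochberg adjustment over all genes tested). Each line was fitted alone (18 libraries, 12 residual degrees of freedom), and lines were compared in one fit of all 54. Calls required that the adjusted p not exceed 0.01 and that the log2 difference be 1 or more in size. An interaction term needed the adjusted p alone. Shares of all genes were given for the rule used for the calls. Other counts at the adjusted p alone or at an unadjusted p only describe the genes counted, unless a share is printed with them. Every printed adjusted p is from edgeR with 3 libraries a group. Levels are means ± SD, and a floor of 3 counts per library bounded folds against groups at or near 0. Floors cover counting error only, whereas SDs and SEs hold the spread between libraries.

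The members and gene lists were chosen with earlier results of these data known. Values in every library were given for members called in the same direction under uracil in 2 or more lines, for the 3 members with the largest fold change among those called in each line, and for the 2 with the largest among those called in sensitive cells under 5-FU. Zinc fingers were matched by pattern and KRAB domains with HMMER 3.4 in proteins translated from GENCODE 44. Alternatives were DESeq2 1.42.0, library size scaling, no filter, no fold threshold, only the compared groups, a replicate block, each replicate left out, and the deepest library thinned to 22.6%. The procedure was run on simulated data with 200 changed genes. The changed genes were drawn only from genes with higher counts, so members near the count floor were not covered. No 2 libraries of the same condition agreed within sampling noise, so none were merged. Libraries of different conditions were not compared in this way.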

Additional observations from a re-analysis of the deposited data

Results flagged for a closer look

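In 21 tests of a difference between groups, a member's change in one group differed from its change in another at the edgeR adjusted p. Of these, 13 compare the change with resistance in HCT-116 with that in DLD-1 under uracil, as HCT-116 minus DLD-1 on the log2 scale. ZFP30 (-6.28), ZNF607 (-4.75), ZNF585B (-4.56), ZNF567 (-4.44) and ZFP14 (-4.02) had the largest terms. ZNF573 (-2.98), ZNF585A (-2.95), ZNF383 (-2.82), ZNF566 (-2.15) and ZNF792 (-1.64) were negative as well, and ZNF345 (2.56), ZNF569 (2.10) and ZNF565 (0.91) were positive.

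The other 8 compare the response to 5-FU in resistant cells with that in sensitive cells of a line. In DLD-1, ZFP14 had a term of 0.68. In HCT-116, ZNF792 had 0.52 and ZNF567 -1.74. In HT-29, where the resistant libraries hold HCT-116 markers, ZNF599 had 1.69, ZNF792 0.98, ZNF565 0.62, ZNF302 0.44 and ZNF527 -1.15.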

How the results depend on the processing

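Of the 158 called log2 fold changes of members, 1202 values were computed under alternatives. Of these, 1137 stayed on the same side of the threshold, 65 fell below it and 0 changed direction. For resistant against sensitive cells under uracil, 4 of 212 fell below it. Of 278 recomputed counts and ratios, 247 moved by less than 1.5 times or less than 1 SD. With no fold threshold, for which no share of all genes is given, resistant against sensitive DLD-1 had 11 members called under uracil. It had 15 under 5-FU and 14 under 5-FU with irradiation. On the same terms, 5-FU against uracil had 7 in sensitive HT-29, 5 in HCT-116 and 7 in DLD-1, sensitive HCT-116 against DLD-1 had 20, and labelled resistant HT-29 against resistant HCT-116 had 3. With library size scaling, resistant against sensitive DLD-1 had 5 members under 5-FU and 7 with irradiation, the DLD-1 response term had 2, and 5-FU in sensitive HCT-116 had 2. DESeq2 gave 3 for the DLD-1 response term and 0 for 5-FU in sensitive HCT-116. Without the filter on low counts the response terms numbered 3 for DLD-1 with 0 for HCT-116, and with only the compared groups 0 in DLD-1. Leaving out 1 replicate number at a time gave 3 to 5 response terms in HT-29, 1 to 1 in HCT-116 (a different member each time, and neither ZNF792 nor ZNF567) and 0 to 1 in DLD-1, and 0 to 2 members for 5-FU in sensitive HCT-116. The summed ratio of resistant to sensitive cells was 0.473 in HCT-116 and 0.528 in HT-29 with CPM in place of TPM, and 0.581 and 0.665 without ZNF585A and ZNF585B. The cause of these changes was not tested.

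Same-numbered sensitive and resistant libraries of a line and treatment deviated together little, with 1 of 27 correlations of deviations over 0.1 (highest 0.101). Same-numbered libraries of different treatments were not compared in this way, so pairing between treatments was not tested. With the replicate block, the DLD-1 response term of ZFP14 was no longer called, which left 0 members, and the other counts stayed within 1.5 times.

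Scaling by library size moved the median of all genes by over 0.1 on the log2 scale in several comparisons, most in resistant against sensitive HT-29 under uracil (0.26). The share of lower genes among all called went from 57.4% to 68.2% in resistant against sensitive DLD-1 under 5-FU, from 54% to 66.6% with irradiation, from 45.6% to 35.1% in HT-29 under uracil, from 33.9% to 21.9% for 5-FU in sensitive DLD-1 and from 27.2% to 15.1% in sensitive HT-29. For the response terms it went from 45.5% to 58.8% (HT-29), 38.4% to 48.5% (HCT-116) and 40.0% to 60.8% (DLD-1). Counts under about 10 per library, as for ZNF607 in resistant HCT-116, limit the precision of the largest differences.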
